A study of Homo sapiens with 2 samples.

Results

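The genes described here are 9 cancer testis antigen genes, *PAGE1*, *PAGE4*, *MAGEA1*, *MAGEA4*, *MAGEA10*, *MAGEB2*, *MAGEC1*, *MAGEC2* and *PRAME*, of 22465 genes named on the array. They were taken as every transcript cluster whose only platform gene symbol was one of these names, which gave 1 cluster per gene. The samples were cells of NCI-H446, a cell line established from human small cell lung carcinoma, in stable transfectants of a control vector or of an MTA1 overexpression plasmid. Each group was 1 Affymetrix array of total RNA, and the labels do not say whether the transfectants were clones or pools. The genes were picked with their signals on these arrays already known, so their values describe the arrays, and with no replicate there is no test, no error of a value and no p-value.

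Cancer testis antigens are proteins made in male germ cells, and in some cases placenta, that are normally silent in other adult tissues and reappear in tumours. Most are encoded on the X chromosome in clusters of young, repeated gene copies, and their promoters are known to be held silent by DNA methylation and by repressors that recruit histone-modifying enzymes. MTA1 is a subunit of the NuRD complex, which joins histone deacetylases to a chromatin remodeller, and one form of NuRD reads methylated DNA through MBD2. Type I MAGE proteins bind RING-type ubiquitin ligases, PAGE proteins belong to the GAGE-related family of small acidic proteins, and PRAME is a leucine-rich repeat protein that serves as a substrate receptor of a CUL2 ubiquitin ligase.

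The sequence that RefSeq places just before the start of *PAGE1*, the member whose signal differed, is shown with those of its relative *PAGE4*, which stayed below the floor, and of *PRAME*, which was detected and level. Each is the 250 bases before the annotated start, 5′ to 3′ on the gene's strand in GRCh38.p14, with every CpG and the E-box CACGTG in capitals. The *PAGE1* window is chrX:49695985-49696234 on the minus strand, that of *PAGE4* chrX:49829010-49829259 on the plus strand and that of *PRAME* chr22:22559266-22559515 on the minus strand. For *PAGE4* and *PRAME*, which have 2 and 3 windows in the table, the one farthest upstream is given.
PAGE1: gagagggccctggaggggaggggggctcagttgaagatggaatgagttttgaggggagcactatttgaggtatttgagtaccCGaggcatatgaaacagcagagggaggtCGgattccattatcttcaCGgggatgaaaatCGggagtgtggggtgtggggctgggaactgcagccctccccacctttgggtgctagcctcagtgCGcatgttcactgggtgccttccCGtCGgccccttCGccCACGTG
PAGE4: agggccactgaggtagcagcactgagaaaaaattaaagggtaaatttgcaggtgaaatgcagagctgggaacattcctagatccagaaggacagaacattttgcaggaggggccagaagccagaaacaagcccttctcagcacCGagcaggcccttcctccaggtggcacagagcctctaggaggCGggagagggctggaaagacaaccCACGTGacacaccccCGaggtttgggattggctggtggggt
PRAME: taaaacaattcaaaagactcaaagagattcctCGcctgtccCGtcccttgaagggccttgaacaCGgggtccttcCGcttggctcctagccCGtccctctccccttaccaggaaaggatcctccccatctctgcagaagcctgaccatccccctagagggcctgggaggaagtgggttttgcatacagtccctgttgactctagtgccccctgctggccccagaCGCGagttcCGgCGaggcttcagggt
The *PAGE1* window held 9 CpGs, the *PAGE4* window 4 and the *PRAME* window 9, against a median of 11 over 35093 windows of the same length. CACGTG, which reads the same on both strands and contains a CpG, was found in the windows of *PAGE1* and *PAGE4* and in 6.34% of all windows. In *PAGE1* it fills the last 6 bases before the start, and in *PAGE4* it begins 41 bases before it. Of the 9 genes, 7 had a window in the table, and CACGTG was absent from the other 5, those of *MAGEA4*, *MAGEB2*, *MAGEC1*, *MAGEC2* and *PRAME*. The core GGAA of ETS factors, sought on both strands (GGAA or TTCC), was present in all 7 windows, at 1 to 7 copies, and in 92.7% of all windows. Aligned end to end, the *PAGE1* and *PAGE4* windows were 49.8% identical, and the other 20 pairs of windows 45.4% to 55.6%. These matches describe letters in a window and do not show that a factor binds there. *MAGEA1* and *MAGEA10* have no sequence here.

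The values were deposited as log2 signals. A floor was set at the median of all transcript clusters, a log2 signal of 3.62, and a gene with either array at or above it was counted as at or above the floor, which left 14451 genes. Signals of different probe sets are not on a common scale, so no gene's level is set against another's, and a sum over a list serves only to compare the 2 arrays. The MTA1 array carried more *MTA1* signal, 9.82 against 7.31 on the control array, so the labels held for the overexpressed gene. Of the genes that reached the floor, 0.339% (49) were lower by 2-fold or more with MTA1 and 0.291% (42) were higher by as much, and the median difference, MTA1 minus control, was -0.013. The 4 hybridisation controls were on average 0.24 higher on the MTA1 array. When the arrays were instead centred on these controls, the median of all genes became -0.26 and the split 118 lower and 17 higher. Where a gene was measured by several probe sets, their differences varied with a pooled SD of 0.267 over 149 genes, a spread on the same RNA that says nothing of differences between cultures.

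The cell identity behind these values was checked on marker genes. Of 11 measured neuroendocrine small cell lung carcinoma markers 8 were below the floor on both arrays, *SYP*, *CHGA* and *NCAM1* among them, and *ENO2*, *UCHL1* and *INSM1* were at or above it. Of 9 non-neuroendocrine markers 8 were at or above the floor, such as *VIM*, *AXL* and *YAP1*. Non-neuroendocrine markers had a median difference of 0.25, with 6 above 0 and 2 below. Their summed linear signal was 52203 in control and 65584 in MTA1 cells. Most of that sum came from *ANXA1*, at 14.41 and 14.81, and *VIM*, at 14.31 and 14.64, while *YAP1* and *REST* differed by 0.00 and -0.01. The part of these markers in the results below was not tested. Of 10 germ cell markers 8 were below the floor on both arrays, including *DDX4*, *DAZL*, *SYCP1* and *PRM1*, and the list's summed linear signal was 96.2 and 98.2. Of the other 2, the synaptonemal complex gene *SYCP3* stood at 3.78 and 3.71, and the transition protein gene *TNP1* at 3.35 and 3.74. All 5 measured leukocyte markers and 4 of 7 fibroblast markers were below the floor. Of the fibroblast markers that reached it, *FAP* was at 11.43 and 11.90 and *COL1A1* and *DCN* were near it.

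Among the antigen genes, 3 of 9 were at or above the floor, *PAGE1*, *MAGEA1* and *PRAME*, and 1 of them differed. *PAGE1* had a much lower signal in the MTA1 cells, while those of *MAGEA1* and *PRAME* were nearly equal. The remaining 6 genes, *PAGE4*, *MAGEA4*, *MAGEA10*, *MAGEB2*, *MAGEC1* and *MAGEC2*, were below the floor in both cell populations. The count of members at least 2-fold lower was therefore 1 of 3 at or above the floor, *PAGE1* itself, beside the 0.339% of all genes, and none was 2-fold higher, beside 0.291%. Since the genes were picked for these values, nothing is read from those shares.

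**Figure D1:**
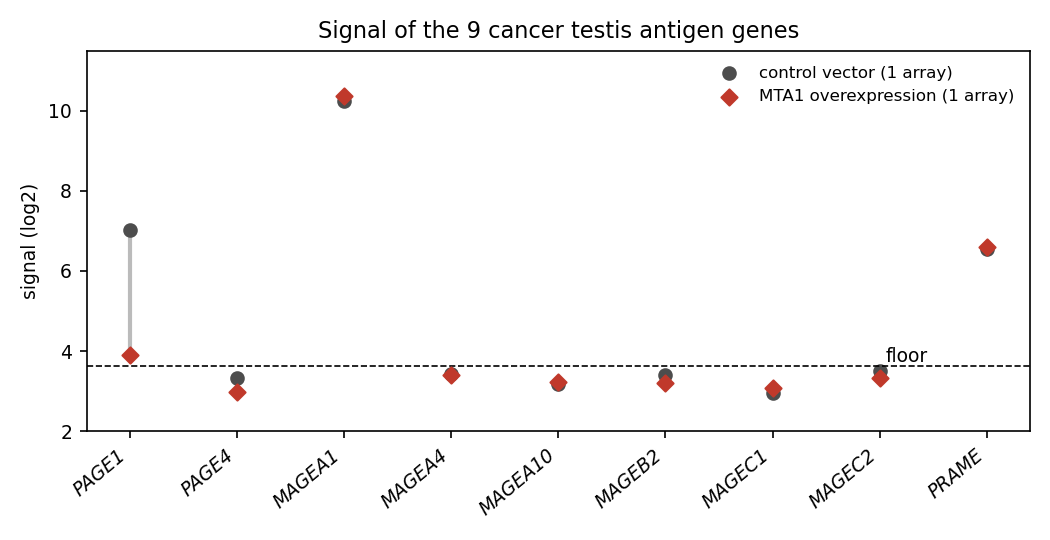
Log2 signal of the 9 cancer testis antigen genes (vertical axis) on the control array (circles) and the MTA1 array (diamonds), 1 array per group, so no error bars; the dashed line is the floor of 3.62. *PAGE1* goes from 7.03 to 3.90, *MAGEA1* and *PRAME* have nearly the same signal on both arrays, and the other 6 genes lie under the floor.

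*PAGE1*, a GAGE-related antigen gene on the short arm of the X chromosome, had a log2 signal of 7.03 in control cells and 3.90 in MTA1 cells. The difference was -3.13, or 8.76-fold lower, and only that of *FLG*, the filaggrin gene, was larger on the lower side among the 14451 genes. The control signal was 3.42 above the floor and the MTA1 signal 0.28 above it, so the transcript was close to the array's background in the overexpressing cells. A signal exactly at the floor would have given 10.7-fold. With the floor raised to the 75th percentile of clusters, 5.67, the MTA1 signal falls under it and the difference is at least 2.57-fold. In RNA of a whole culture, fewer cells that express the gene and less RNA per cell cannot be told apart.

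*MAGEA1*, an antigen known as a target of cytolytic T cells in melanoma, had signals of 10.25 on the control and 10.36 on the MTA1 array. Both lie far above the floor, by 6.64 and 6.75. Its difference was 0.11, or 1.08-fold, and 49.5% of the genes at or above the floor had a difference of smaller size. *PRAME*, on chromosome 22 and the only member off the X chromosome, stood at 6.55 and 6.61. Its difference was 0.06, or 1.04-fold, and 29.5% of genes had a smaller one. With the arrays centred on the hybridisation controls both signs turned, to -0.13 for *MAGEA1* and -0.18 for *PRAME*, against a shift of all genes to -0.26, so no direction is given for either gene.

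The MAGE genes below the floor gave no fold. *MAGEA4*, which encodes an antigen used as a target of engineered T cells, was at 3.42 and 3.41. *MAGEA10*, its close relative in the MAGEA cluster, was at 3.18 and 3.23. *MAGEB2*, from the MAGEB cluster on the short arm, was at 3.40 and 3.19. These pairs show no signal on either array that the floor would count. *MAGEC1*, whose protein carries a long repeat region and is known from myeloma, was at 2.95 and 3.07. *MAGEC2*, whose protein binds the corepressor TRIM28, was at 3.50 and 3.32, and its control signal came within 0.12 of the floor. *PAGE4*, known for its expression in prostate, was at 3.32 and 2.97, a difference of -0.35, which was the largest in size of these 6. Their differences ran from -0.35 to 0.13. A gene below this floor may still be transcribed at a level that these probe sets do not separate from background.

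**Figure D2:**
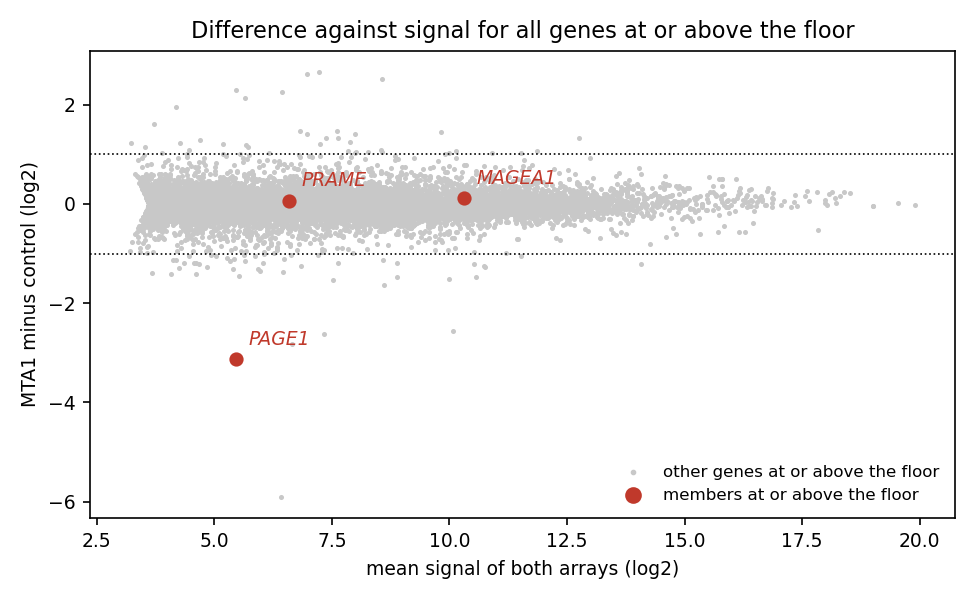
Difference, MTA1 minus control (log2, vertical axis), against the mean log2 signal of both arrays (horizontal axis) for the 14451 genes at or above the floor; dotted lines mark 2-fold, grey points are all other genes and red points the members at or above the floor. *PAGE1* lies at -3.13, below every other gene but *FLG* at -5.90, and *MAGEA1* and *PRAME* lie at 0.11 and 0.06.

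No named gene next to *PAGE1* showed its difference, though few had enough signal to show a fall. In the order of the RefSeq table, the nearest named and measured gene on one side was *GAGE1*, a related antigen gene, at 2.82 and 3.01, and on the other *PAGE4*, both below the floor. Of the 10 named neighbours, 5 on each side, 3 were at or above the floor, and their differences ran from 0.03 to 0.17. These were *GAGE12B* at 3.85 and 4.02, the deubiquitinase gene *USP27X* at 4.28 and 4.42, and the chloride transporter gene *CLCN5* at 6.63 and 6.67. None of the 10 reached 2-fold. Over the whole X chromosome 500 named genes were at or above the floor with a median difference of -0.01. The 2 that passed 2-fold were *PAGE1*, lower, and *MIR548F5*, higher, at 4.06 and 5.35. Among all named genes 0.339% were lower and 0.291% higher by as much. Counting unnamed clusters too, 1266 clusters with an X identifier were at or above the floor, 7 of them at least 2-fold lower and 3 at least 2-fold higher. The largest lower difference after *PAGE1* was -1.72. The share over all clusters was not computed, so these counts are not read as particular to the X chromosome.

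None of the named neighbours of *MAGEA1*, *MAGEA4*, *MAGEA10*, *MAGEB2*, *MAGEC1*, *MAGEC2* and *PRAME* reached 2-fold, beside 0.339% lower and 0.291% higher among all genes. Few could, as only 2 of 10 around *MAGEA4* and *MAGEA10* and 3 of 10 around *MAGEC1* and *MAGEC2* reached the floor. The median size of difference over all genes at or above the floor was 0.115. Around *MAGEA1*, 6 of 10 named neighbours were at or above the floor, with differences from -0.04 to 0.42, the highest being the LIM-domain gene *ZNF185* at 7.68 and 8.10. Around *PRAME*, which lies among immunoglobulin lambda segments, the nearest named genes were *ZNF280A* at 3.17 and 3.16 and, on the other side, an uncharacterised locus at 4.44 and 4.56. The 5 of its 10 neighbours at or above the floor differed by -0.03 to 0.14. Around *MAGEB2*, 5 of 10 neighbours were at or above the floor and differed by -0.26 to 0.44, with the pseudogene *RNA5SP500* at 4.94 and 5.38 and *DCAF8L1* at 4.42 and 4.79. *GABRA3*, a GABA receptor subunit gene next to *MAGEA10*, was at 4.60 and 4.93. One neighbour in these stretches was past 1.5-fold apart from *PAGE1* itself: *LDOC1*, a retrotransposon-derived gene near *MAGEC1* and *MAGEC2*, stood at 11.32 and 12.05, or 1.65-fold higher.

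**Figure D3:**
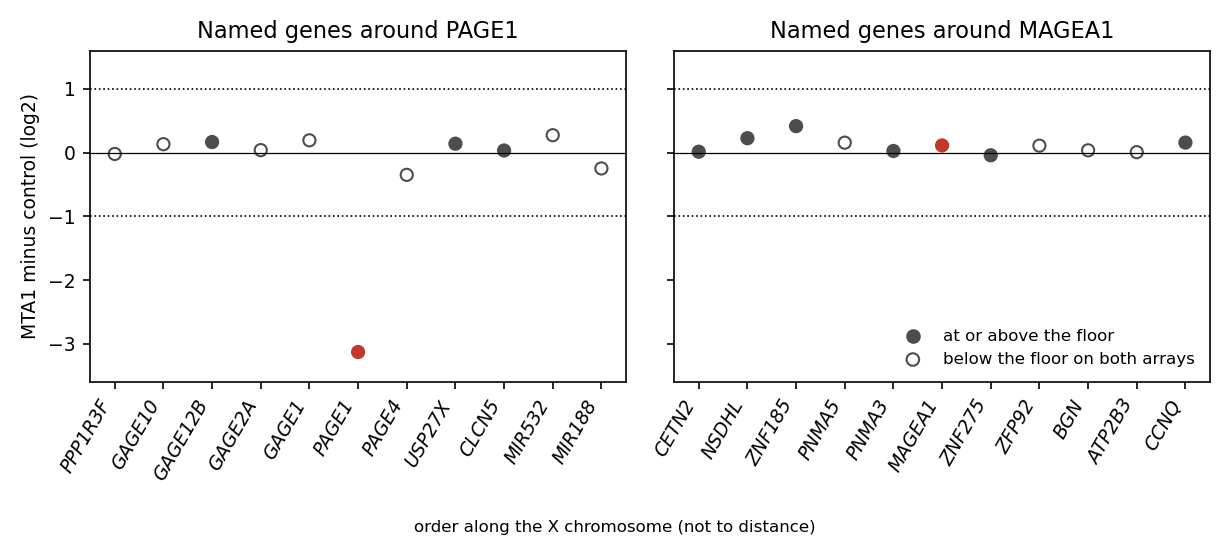
Difference, MTA1 minus control (log2, vertical axis), for the 5 named genes on either side of *PAGE1* (left) and of *MAGEA1* (right), in their order along the X chromosome and not to distance; red points are the members, filled points reach the floor and open points lie below it on both arrays, and dotted lines mark 2-fold. *PAGE1* stands at -3.13 while its 3 neighbours at or above the floor lie between 0.03 and 0.17.

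The wider families were mostly below the floor or close to level. With 0.339% of all genes 2-fold lower and 0.291% higher, lists this short, here and below, would hold few such genes or none. Of the other PAGE, GAGE and XAGE genes 10 of 31 were named by a cluster with a single symbol, and 8 of these were below the floor, *PAGE2*, *PAGE2B*, *PAGE3* and *PAGE5* among them. The 2 at or above it, *GAGE12B* and *XAGE3*, differed by 0.17 and 0.07, and *XAGE3* touched the floor on one array only, at 3.61 and 3.68. Of the other type I MAGE genes 13 of 20 were named, 5 reached the floor, 3 lay above 0 and 2 below, none was 2-fold apart, and their median difference was 0.01. *MAGEA3* stood at 4.81 and 4.77 and *MAGEA6* at 4.14 and 4.19, the products of both being known partners of TRIM28. *MAGEA8* was at 4.78 and 4.56, *MAGEB3*, the neighbour of *MAGEB2*, at 4.18 and 4.45, and *MAGEA11*, a coregulator of the androgen receptor, at 3.61 and 3.62. *MAGEA3* and *MAGEA6* are near-identical copies whose probes may share signal, and so are the GAGE genes.

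Of 51 other X-linked cancer testis genes only 25 were named by a cluster with a single symbol, so the rest were not assessed as genes. Of the 25 named, 7 reached the floor, none was 2-fold apart and their median difference was 0.04. *CT83*, known as the antigen KK-LC-1 in lung cancer, was well above the floor and level, at 10.54 and 10.64. *FTHL17*, a ferritin heavy chain-like gene, was at 3.19 and 3.97, and as its control value lay below the floor its difference is at least 1.28-fold. *FMR1NB* was at 3.19 and 3.62, *SSX1*, a transcriptional repressor gene, at 3.86 and 3.54, and *CTAG2*, a relative of NY-ESO-1, at 3.84 and 3.89. *CSAG1* and *CT45A5* were within 0.05 of 0. The members and the X-linked lists together held 111 genes, of which 57 were named. Of these, 17 reached the floor, 11 above 0 and 6 below. *PAGE1* was the 1 gene past 2-fold, beside 0.339% of all genes for lower and 0.291% for higher differences. As *PAGE1* was picked for its value, nothing is read from this count. Most of the other genes lay too close to the floor in control cells for a 2-fold fall to be seen. Another 29 clusters carried several symbols, all from these families, and were not assigned to a gene. Their differences ran from -0.25 to 0.27 and none had a signal above 4.68.

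Further cancer testis and germline genes, all autosomal but *IL13RA2*, gave 45 named genes. Of these, 18 were at or above the floor with a median difference of -0.07, 6 above 0 and 12 below. None was 2-fold apart, beside 0.339% lower and 0.291% higher among all genes. Several of these are mitotic genes that dividing cells also express: *KIF20B* was at 10.76 and 10.43, *NUF2* at 9.83 and 9.64, and *PBK* at 10.09 and 9.93. *SPAG9*, a JNK scaffold gene, was at 14.84 and 14.87, and *ATAD2*, a bromodomain ATPase gene, at 10.25 and 10.21. *CABYR*, a sperm flagellum calcium-binding protein gene, was at 5.41 and 5.10. *IL13RA2*, a decoy receptor for interleukin 13, was at 3.68 and 4.21, or 1.45-fold higher and near the floor on the control array. Of 18 other PRAME family genes 8 were named, and all 8 were below the floor on both arrays. The type II MAGE genes, some of which most tissues express, had 5 of 10 named genes at or above the floor. Their median difference was 0.12 and none was past 2-fold. Among them *NSMCE3*, a subunit of the SMC5/6 complex, was at 8.46 and 9.05, a difference of 0.58. *MAGED2* was at 8.07 and 8.26, *MAGEF1* at 6.74 and 6.86, *MAGEH1* at 4.33 and 3.95, and *MAGEE1* at 4.20 and 3.89. *MAGED1* was below the floor, at 3.13 and 3.12.

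**Figure D4:**
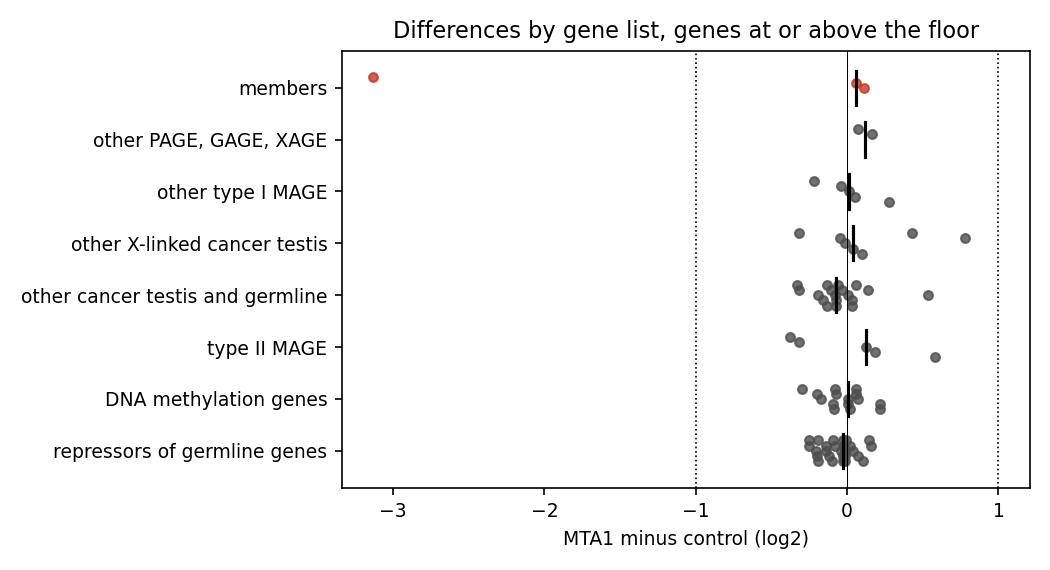
Difference, MTA1 minus control (log2, horizontal axis), of every gene at or above the floor in 8 gene lists; each point is 1 gene, red for the members, black bars are list medians and dotted lines mark 2-fold. *PAGE1*, at -3.13, is the one point past a dotted line, and the list medians lie between -0.07 and 0.12. The overexpressed *MTA1* is in none of the lists.

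The listed DNA methylation genes and repressors of germline genes were close to level. Their action on cancer testis promoters in these cells was not tested. Of the DNA methylation genes 15 of 16 reached the floor, 8 above 0 and 7 below, with a median difference of 0.00. None was 2-fold apart, beside 0.339% lower and 0.291% higher among all genes. A list this short would hold few such genes or none in any case. The maintenance methyltransferase gene *DNMT1* was at 12.52 and 12.57, the methyl-CpG reader genes *MBD2* and *MBD1* at 13.30 and 13.22 and at 7.48 and 7.29, and the insulator gene *CTCF* at 11.35 and 11.28. The largest difference in size was that of *HELLS*, a chromatin remodeller needed for DNA methylation, at 10.32 and 10.03. *DNMT3A*, a de novo methyltransferase gene, was at 5.43 and 5.65, and the demethylase genes *TET3* and *TET1* at 5.79 and 5.62 and at 3.53 and 3.74. Of 27 repressors of germline genes, 21 were below 0 and 6 above with a median of -0.03, beside -0.013 for all genes. None of these was 2-fold apart, but the list leaves out the overexpressed NuRD subunit *MTA1*, at 7.31 and 9.82. The listed repressors included the NuRD subunits *MTA2*, at 11.18 and 10.93, *GATAD2B*, at 12.17 and 12.31, and *RBBP4*, at 12.96 and 12.95. *MGA*, which binds E-boxes with MAX in a germline-repressing Polycomb complex, was at 12.23 and 12.04. The histone methyltransferase gene *SETDB1* was at 7.01 and 6.81, the HUSH complex genes *TASOR* and *PPHLN1* at 10.64 and 10.39 and at 9.29 and 9.08, and the demethylase gene *KDM1A* at 12.57 and 12.61.

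The factors known at MAGE promoters and the partners of MAGE and PRAME proteins did not reach 2-fold either. Among all genes 0.339% were lower and 0.291% higher by as much. Of 9 such factors 5 were above 0 and 4 below, with a median of 0.01. *ETS2* was at 11.46 and 11.75, *ETS1* at 7.99 and 8.17, *SP3* at 11.03 and 10.85, *ELF1* at 10.58 and 10.44, *GABPA* at 8.17 and 8.06, and *SP1* at 10.82 and 10.88. Of the partner genes 14 of 15 reached the floor, 7 above 0 and 7 below, with a median of -0.01. *PRKAA1*, the AMPK catalytic subunit that MAGEA3 and MAGEA6 with TRIM28 target for degradation, was at 12.83 and 12.59. *CUL2* and *ELOC*, scaffold and adaptor of the ligase that uses PRAME, were at 10.19 and 10.08 and at 8.53 and 8.69. *EZH2*, a methyltransferase that PRAME binds, was at 8.62 and 8.52. The ubiquitin ligase genes *HUWE1* and *SKP2* were at 14.05 and 13.94 and at 13.15 and 13.08.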

How the data were processed

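Total RNA of NCI-H446 cells with a control vector or an MTA1 plasmid was hybridised to 1 Affymetrix array per group. The authors deposited log2 signals, for which RMA is named per the submitters' processing notes. The software version, annotation release and any later transformation were not given in the sources used here. At 829 features the signal exceeded 16, the log2 of the largest scanner reading, so fold sizes depend on a transformation that is unknown. The number of arrays limits the precision.

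Of 67528 transcript clusters, 23781 features had 1 gene symbol and 1543 several, and 42204 clusters were unnamed. By gene identifier 21497 symbols were updated from RefSeq (GRCh38.p14) and 2284 were kept. The array's build is not named, so RefSeq gave names and gene order, and coordinates only for its own promoter windows. The brightest probe set stood for a gene. The floor was the median over clusters of the mean of both arrays.

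The members and lists were chosen with earlier results of these data known. Named were the members, in each list the 5 genes of largest difference and the 3 of highest signal at or above the floor and neighbours at least 1.5-fold apart or nearest to *PAGE1* and *PRAME*. A planned naming of genes with signals like those of *PAGE1* was dropped, since probe sets are not on a common scale. Further list members and neighbours, *FLG*, *MIR548F5* and marker genes were named after their values were seen. Alternatives changed scaling, floor, probe sets per gene and fold threshold. A planned comparison of protein sequences was not run. Counting was tested on simulated data. Python 3.11.15, numpy 2.4.6, pandas 2.3.3, matplotlib 3.10.9, Biopython 1.88 and R 4.3.3 with limma 3.58.1 were used.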

Additional observations from a re-analysis of the deposited data

How the results depend on the processing

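The difference of *PAGE1* ran from -3.38 to -3.09 over 4 scalings (quantile normalisation, cyclic loess, centring on the median difference and centring on the hybridisation controls), and *PAGE1* was the 1 member at least 2-fold lower under each of these and each floor. With 1 cluster per member, averaging probe sets could not change a member's value. Centring on the hybridisation controls turned the sign of *MAGEA1*, *MAGEA10*, *MAGEC1* and *PRAME*, moved all 9 list medians that had a value, to between -0.32 and -0.08, with all genes at -0.26, and gave 118 lower and 17 higher genes in place of 49 and 42. It turned several list medians from above to below 0. These were the other PAGE, GAGE and XAGE (to -0.08), type I MAGE (-0.24), type II MAGE (-0.12), other X-linked (-0.23), DNA methylation (-0.28) and promoter factor (-0.24) lists. The floor stayed in place, so genes that reached it only on the MTA1 array could drop out of these medians. *XAGE3* did so, and the -0.08 is the value of *GAGE12B* alone. With no floor, 9 members were counted in place of 3. At 1.5-fold, 252 genes were lower and 210 higher. The *PAGE1* fold of 8.76 was measured with both signals above the main floor, but its MTA1 signal was near background. At the 75th percentile floor only a bound of at least 2.57-fold remains. No paired analysis was possible because each group has 1 array.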
